A study of Apis mellifera with 24 samples.

Results

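The ovary transcriptome of egg-laying honey bee queens was compared with that of virgin queens. The deposited mRNA table lists 21596 transcripts, and the 18036 with a mean of at least 0.1 FPKM over the 6 libraries of these groups were compared. FPKM is a fragment count scaled by the length of the transcript and the mapped fragments of the library. Of the transcripts left out, 1366 were listed at 0 in all 6 libraries and 2194 had a mean under 0.1 FPKM.

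The queens were sisters of Apis mellifera ligustica, reared from 1 colony, and each library held the ovary of 1 queen. The 3 virgin queens were never inseminated, and the 3 egg-laying queens had been inseminated by instrument and had begun to lay. The table also holds 3 egg-laying inhibited queens, caged for 7 days after laying had begun, and 3 egg-laying recovery queens, caged for 7 days and then released. All mated queens received semen of the same source. Insemination, laying and the age at sampling, which is not given in the sources used here, cannot be told apart in this contrast. In a whole ovary, fewer cells of a type and less RNA per cell cannot be told apart either.

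The ovary of a queen consists of ovarioles in which germline stem cell descendants form an oocyte and its sister nurse cells, wrapped by somatic follicle cells. Nurse cells copy their genome many times and pour RNA and protein into the oocyte, which thereby receives the maternal messages of the early embryo, histones and body axis factors among them. The yolk precursor vitellogenin is made mostly in the fat body and taken up from the blood. In virgin queens the ovarioles hold few large follicles, and they fill after mating.

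The most abundant message of laying ovaries was that of histone H3, the core nucleosome protein, and its transcript XM_003251571.2 is the one for which the study designed a primer pair. The study also designed a pair for myophilin, a muscle protein named further on. Both pairs are shown to mark which transcripts these names stand for, with no base singled out by capitals.
Histone H3 forward: cctggaactgttgctcttcg
Histone H3 reverse: cttgcgcaatttcacgaacg
Myophilin forward: aggcagccagaacattaggt
Myophilin reverse: ttacccgcctttctaccgag
They give products of 103 and 121 bp, respectively.

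Germline messages were present in every library. The transcript of vas, an RNA helicase of germ cells, stood at 96.7, 174 and 87.2 FPKM in virgin queens 1 to 3 and at 311, 298 and 311 FPKM in egg-laying queens. The transcript of nanos, a translational repressor of the germline, stood at 82.9 to 106 FPKM and at 90.9 to 161 FPKM, while aub, a piwi family gene, stayed at 2.24 to 5.82 FPKM. Between libraries of 1 group the Pearson correlation over transcripts on log2(FPKM + 1) was 0.967 to 0.977 in virgin and 0.978 to 0.985 in egg-laying queens, and between the groups it was 0.848 to 0.903. Virgin queen 2 stood apart from the other virgin queens. Its correlations with the egg-laying libraries were 0.887 to 0.903, against 0.848 to 0.866 for virgin queens 1 and 3. On a scale with the other virgin queens at 0 and the egg-laying queens at 1, it lay at 0.21, virgin queen 1 at 0.00 and virgin queen 3 at -0.07. The main counts and the largest rises are therefore also given without it.

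The egg-laying transcriptome was more concentrated, with more transcripts of high abundance and more that were listed at 0. Transcripts between 100 and 1000 FPKM numbered 414 to 495 in virgin and 802 to 853 in egg-laying libraries, and those at 1000 FPKM or more numbered 21 to 36 and 41 to 48. At the other end, 2630 to 2845 transcripts were listed at 0 in virgin and 3502 to 3747 in egg-laying libraries. The class from 1 to 10 FPKM shrank from 6357 to 6973 transcripts to 5521 to 5834. None of these ranges overlapped. An exact permutation test of 3 against 3 cannot go below p = 0.1, two-sided, and each of these measures reached p = 0.1. Counts by FPKM class depend on the scale of the libraries, whose summed FPKM differed between the groups, and were not repeated after rescaling. The number listed at 0 also depends on depth, which is unknown here.

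**Figure D1:**
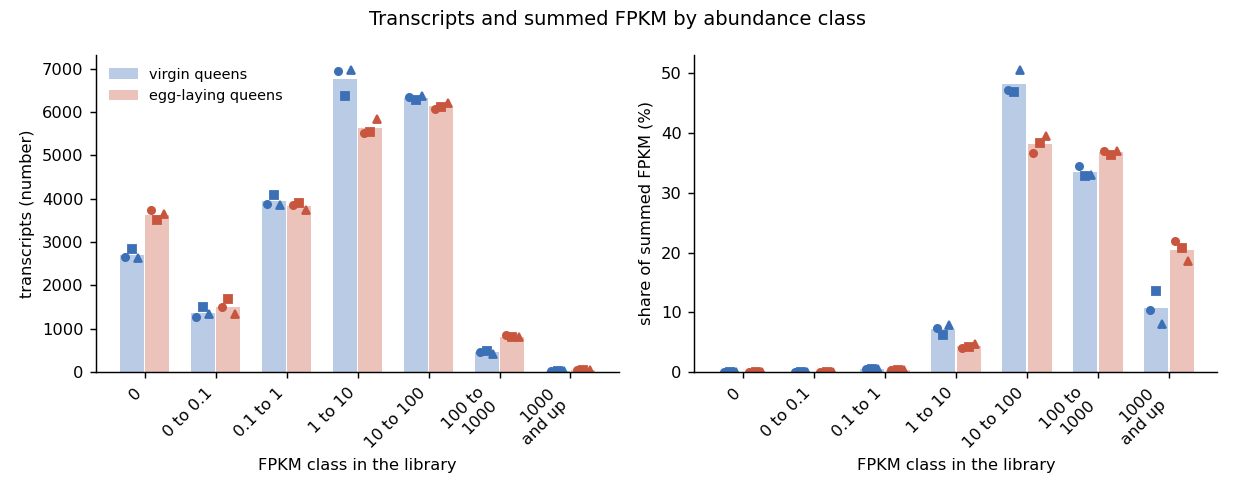
Number of transcripts (left) and share of summed FPKM in percent (right) by FPKM class within each library. Bars are means of 3 queens and points are single queens (circle, square and triangle for queens 1, 2 and 3). The 3 egg-laying libraries lay above all virgin libraries in the classes from 100 FPKM and, by number, in the class at 0, and below them from 1 to 100 FPKM.

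The same shift was seen in the shares. In virgin libraries 690 to 845 transcripts made up 50% of the summed FPKM, and in egg-laying libraries 498 to 591 did (754 ± 81.0 and 540 ± 47.2, SD, n = 3, exact permutation p = 0.1). The 10 most abundant transcripts held 4.66% to 5.99% of the sum in virgin and 9.44% to 10.9% in egg-laying libraries. Transcripts at 1000 FPKM or more held 8.01% to 13.6% and 18.6% to 22.0%, and those from 10 to 100 FPKM held 46.9% to 50.6% and 36.7% to 39.4%. The caged and released queens, with 467 to 562 transcripts for 50% of the sum, lay in and just under the egg-laying range.

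**Figure D2:**
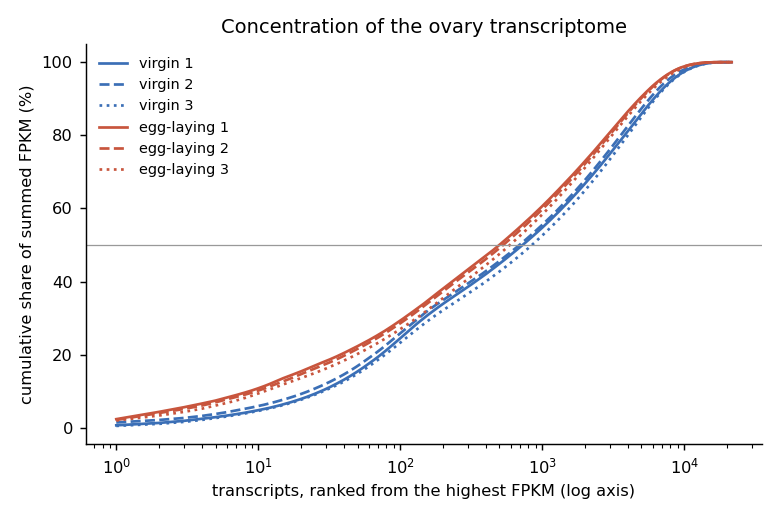
Cumulative share of summed FPKM in percent against the number of transcripts, ranked from the most abundant, on a log axis. Each line is 1 queen, and the grey line marks 50%. All 3 egg-laying lines run above the virgin lines over the first 10 transcripts and cross 50% earlier, at 498 to 591 transcripts against 690 to 845.

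The summed FPKM was higher in egg-laying queens, at 521059 to 559542 against 355905 to 405177. FPKM divides by transcript length, so this sum grows where short transcripts take more of the reads, and it does not measure the amount of RNA. Between the group means, rises added 220349 FPKM and falls summed to -63564 FPKM. The net rise was spread unevenly, as 44 transcripts matched 50% of it, the first 10 matched 30.6% and histone H3 alone matched 6.68%. Of all listed transcripts, 65.1% kept the abundance class of their mean, 12.2% moved up 1 class and 18.6% moved down 1 class. Moves of 2 or more classes were made upward by 291 transcripts and downward by 582.

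The most abundant messages changed in part. Only 3 transcripts stood among the first 10 of both groups, namely histone H3, the heat shock cognate Hsc70-4, a chaperone of newly made proteins, and XM_003251576.2 of the unnamed gene 725230. Of the first 100, 66 were shared. The first 10 of the virgin queens all stood within the first 35 of the egg-laying queens. Histone H3 stood at 1407, 2007 and 1037 FPKM in the virgin queens and at 13544, 11682 and 10654 FPKM in the egg-laying queens, which moved it from rank 8 to rank 1 (log2 difference 3.06 ± 0.30 SE, limma adjusted p = 5.6e-06). Histone H4, its nucleosome partner, stood at 894, 1488 and 797 FPKM and at 11118, 10042 and 7096 FPKM (rank 24 to rank 2, log2 difference 3.18 ± 0.30, limma adjusted p = 3.6e-06). The groups were far from overlapping in both, and virgin queen 2 was the highest virgin queen, so that the differences were 3.30 and 3.45 without it. The study's table of reproduction genes gives histone H4 as higher in egg-laying than in virgin queens. It gives histone H3 as lower, which is opposite to the deposited values used here, and the reason was not tested.

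XM_006566491.1, of a gene resembling a micronuclear linker histone polyprotein, rose further. The virgin queens had 19.5, 149 and 16.9 FPKM and the egg-laying queens 3589, 2809 and 3798 FPKM (log2 difference 6.47 ± 0.60, limma adjusted p = 3.4e-06). That was rank 960 against rank 8, and the difference was 7.46 without virgin queen 2. Histone H3, histone H4 and this linker histone-like gene together held 0.520% to 0.899% of the summed FPKM in virgin queens. In egg-laying queens their share was 4.14% to 5.05% (exact permutation p = 0.1). All 3 are named in the study's lists of genes that differed in these samples, so this share is not independent evidence. Histone genes exist in near-identical copies, so the split of reads between them is uncertain.

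In the gene order of RefSeq for the assembly Amel_HAv3.1, the histone H4 gene lies directly beside the histone H3 gene, and the unnamed genes 726487 and 726468 lie 2 and 5 places from it. Both rose to the first 10. XM_001122218.3 of gene 726487 stood at 202, 607 and 185 FPKM and then at 4563, 4292 and 3474 FPKM (log2 difference 3.84 ± 0.36). XM_003251565.2 of gene 726468 stood at 723, 1233 and 513 FPKM and then at 7116, 6023 and 5208 FPKM (log2 difference 2.98 ± 0.29). Neighbours did not all move this way, since gene 726447, 6 places off, stood at 742 to 1457 FPKM and 1232 to 1303 FPKM, and gene 551156, 3 places off, fell by 1.01 ± 0.14. This neighbourhood was picked with its values already known. Over 7050 placed genes with a transcript tested, 303 (4.30%) rose by 2 or more on the log2 scale, and 14.9% of these had such a gene directly beside them, against 5.91% of the other genes. For falls of 2 or more (196 genes) the shares were 16.8% and 3.50%.

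The remaining leaders of the egg-laying ovary have no gene name in the tables used here. XM_006557891.1 of gene 100578903 rose from 45.7, 211 and 28.3 FPKM to 4593, 4865 and 4473 FPKM, and XM_006572034.1 of gene 102654683 from 3.40, 99.5 and 2.32 FPKM to 3899, 3623 and 3329 FPKM. XM_003251576.2 went from 2178, 2214 and 1557 FPKM to 5562, 4787 and 4475 FPKM (log2 difference 1.33, but -0.055 under quantile normalization), and XM_006570799.1, without a paired gene, from 601 to 982 FPKM to 2751 to 3372 FPKM. Virgin queen 2 was again the highest virgin queen in each of these 4.

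Most leaders of the virgin ovary moved less on the deposited scale. Ribosomal protein L41, a part of the large ribosomal subunit, stood at 2793, 2781 and 1814 FPKM in virgin and at 3146, 3002 and 2142 FPKM in egg-laying queens, and the ranges overlapped (limma adjusted p = 0.57). Hsc70-4 stood at 2016 to 2488 FPKM and 3059 to 3432 FPKM (log2 difference 0.56 ± 0.18, limma adjusted p = 0.020), and it was not called once each library was rescaled to the same sum and turned negative under quantile normalization. XM_006564009.1 of gene 726175, at 1710 to 2012 FPKM in virgin queens, XM_001121282.3 of gene 725432, at 1324 to 1612 FPKM, XM_397314.5 of gene 413875, at 1331 to 1409 FPKM, and XM_624648.4 of gene 552272, with a mean of 1433 FPKM, were not called. After rescaling to the same sum the last 2 were called lower (both -0.80), as was gene 726175 (-0.46), while gene 725432 was still not called. XM_006565582.1 of gene 724369 fell by 0.42 ± 0.16 (limma adjusted p = 0.043) but was called in only 9 of 22 alternative settings, with -0.92 after rescaling. The transcript with the highest virgin mean, XM_006562069.1 of gene 100188940, varied between queens of 1 group, at 489, 6120 and 1903 FPKM in virgin queens and from 0 to 6096 FPKM in the caged and released queens. The smallest differences among transcripts at 100 FPKM or more were those of the respiratory electron carrier CytC, at 115 to 201 FPKM and 133 to 178 FPKM, of gene 411183 and of gene 410004, each with a log2 difference of 0.00.

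The test across all transcripts called 10074 of 18036 (55.9%) at an adjusted p under 0.05, of which 5031 (27.9%) were higher and 5043 (28.0%) lower in egg-laying queens. The median difference over all transcripts was -0.06 on the log2(FPKM + 1) scale. Rises were larger than falls, with 2422 rises and 1866 falls of at least 1, 657 and 365 of at least 2, and 86 and 16 of at least 4. The 2 groups did not overlap in 10939 transcripts (60.7%). Without virgin queen 2, 5052 were called higher and 5101 lower. The balance of directions depended on the scale. With every library rescaled to the same summed FPKM, 3076 were called higher and 8108 lower, and the median difference was -0.36. In the same fit over all libraries and the same transcripts, 22 transcripts were called between egg-laying inhibited and egg-laying queens and 114 between recovery and inhibited queens.

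**Figure D3:**
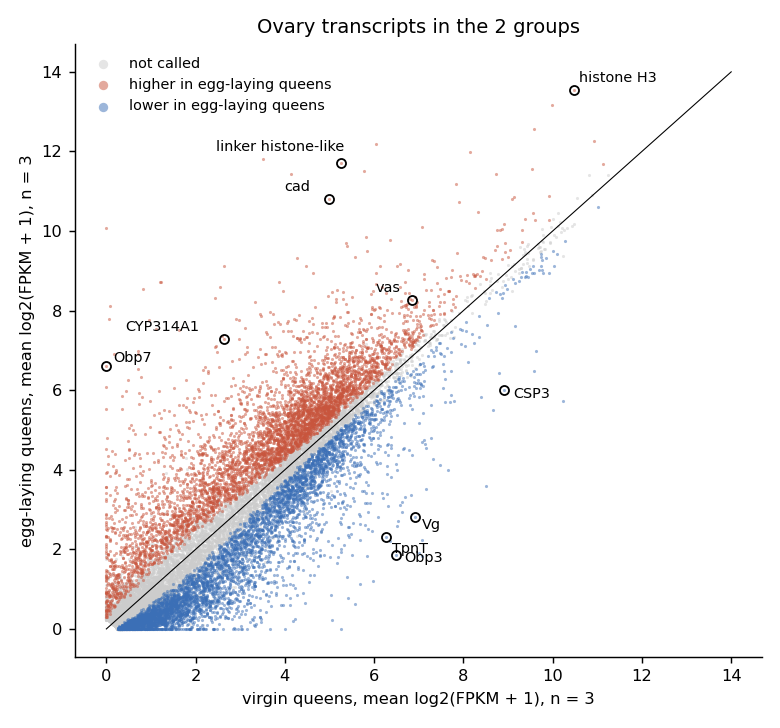
Mean log2(FPKM + 1) of 18036 transcripts in 3 egg-laying queens against 3 virgin queens, with the line of equality. Points are colored where limma called them at an adjusted p under 0.05 (5031 higher and 5043 lower), and 10 named transcripts are circled. Higher calls dominate above 10 FPKM and lower calls among the rare transcripts.

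Abundant transcripts were called higher and rare ones lower. Of the 1430 calls among transcripts with a mean of 0.1 to 1 FPKM, 12.9% were higher. That share was 38.4% of 3474 calls from 1 to 10 FPKM, 66.8% of 4689 calls from 10 to 100 FPKM and 78.2% of 459 calls from 100 to 1000 FPKM. Without virgin queen 2 the shares were 8.85%, 36.9%, 68.9% and 80.6%, and after rescaling to the same sum they were 6.97%, 20.8%, 38.6% and 49.5%. Quantile normalization, which gives every library the same distribution, leveled them to 43.7%, 44.8%, 46.9% and 44.9%.

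The largest rises were mostly of unnamed genes that were near 0 in all 3 virgin queens. XM_003250045.2 of gene 100577698 stood at 0.145, 0.0385 and 0.0196 FPKM in virgin queens and at 268, 249 and 309 FPKM in egg-laying queens (log2 difference 8.01 ± 0.18, limma adjusted p = 1.0e-10). XM_003250085.2 of gene 100576982 went from 0.0145 to 0.118 FPKM to 175 to 290 FPKM, XM_003250895.2 of gene 100578107 from 0.546 to 0.973 FPKM to 333 to 421 FPKM, and XM_396824.4 of gene 413379 from 0.918 to 1.92 FPKM to a mean of 432 FPKM (SD 122). The caged and released queens ranged from 204 to 590 FPKM. Virgin queen 2 was not raised in them, in contrast to XM_006572034.1, whose log2 difference was 8.31 ± 0.94 with it and 9.88 without it.

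The largest falls were smaller on the log2(FPKM + 1) scale. XM_001120613.3 of gene 724721 stood at 245, 80.8 and 121 FPKM in virgin queens and at 2.66, 3.52 and 1.71 FPKM in egg-laying queens (log2 difference -5.25 ± 0.46, limma adjusted p = 2.2e-06). XM_006571056.1 went from 90.1 to 181 FPKM to 0.246 to 7.14 FPKM, XM_003250093.2 of gene 100577725 from 29.0 to 104 FPKM to 0.309 to 0.762 FPKM, and XM_006560011.1 of gene 551582 from 21.9 to 47.1 FPKM to 0, 0 and 0.592 FPKM. The last was listed at 0 in all 6 caged and released queens. XM_006571877.1 also fell, by 4.91 ± 1.86 (limma adjusted p = 0.041), but among the caged and released queens it ranged from 5.05 to 700 FPKM, and 10 of the 22 alternative settings did not call it.

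Transcripts were termed gained if they stayed under 0.1 FPKM in each virgin queen and reached 1 FPKM in each egg-laying queen, and lost in the opposite case. There were 41 gained and 51 lost transcripts, and without virgin queen 2 there were 67 and 82. Leaving out any queen of the 2 groups loosens these limits by construction, and gave 49 to 67 gained and 60 to 82 lost. Gained transcripts had a median of 5.03 FPKM in egg-laying queens and a maximum of 1088 FPKM, lost ones a median of 3.06 FPKM and a maximum of 38.2 FPKM in virgin queens. The limits chose these members, so their fold changes are not findings.

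The caged and released queens were not used by these limits. Of the 41 gained transcripts, 26 reached 1 FPKM in all 3 inhibited queens and 25 in all 3 recovery queens, while 5 and 2 reached it in none of the 3, respectively. Of the 51 lost transcripts, none reached 1 FPKM in all 3 inhibited or all 3 recovery queens, while 20 and 22 were under 0.1 FPKM in all 3, respectively. Only 39 and 38 stayed under 1 FPKM in all 3, so the others returned in at least 1 queen. XM_392268.5, not called between egg-laying and virgin queens (limma adjusted p = 0.14), ranged from 0.043 to 14.5 FPKM in the caged and released queens.

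The highest gained transcript was XM_001123087.3, at 1291, 1104 and 868 FPKM in egg-laying queens and listed at 0 in each virgin queen. It was not steady after caging, with 7.28, 919 and 0 FPKM in inhibited and 1012, 98.3 and 1182 FPKM in recovery queens. Odorant binding protein Obp7, of a family of small carriers of hydrophobic ligands known from antennae, was listed at 0 in each virgin queen and at 117, 87.6 and 88.0 FPKM in egg-laying queens, and at 70.1 to 129 FPKM in the other mated queens. XM_006558944.1 reached 53.0 to 77.4 FPKM, XM_006570929.1 of gene 724658 reached 42.8 to 47.4 FPKM and XM_006565402.1 reached 23.6 to 29.3 FPKM. XM_006567413.1, at 24.1, 24.9 and 17.3 FPKM in egg-laying queens, was listed at 0 in all 9 other libraries. The venom peptides Apamin, at 6.09 to 15 FPKM, and Mcdp, at 4.28 to 7.13 FPKM, were also listed at 0 in each virgin queen.

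Lost transcripts were led by XM_006566820.1, at 50.2, 28.2 and 36.4 FPKM in virgin queens and listed at 0 in each egg-laying queen. XM_003251549.2 had 19.2, 1.35 and 20.2 FPKM, so that virgin queen 2 was the low one, and XM_006559740.1 had 6.61 to 18.1 FPKM. XM_006562386.1 of gene 409470 had 9.58, 20.3 and 17.4 FPKM, XM_006571128.1 had 4.32 to 10.3 FPKM and XM_006560283.1 had 6.05 to 8.93 FPKM. The last was listed at 0 in all 9 mated queens.

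Some gained and lost transcripts belonged to genes with other transcripts. Of the 51 lost, 23 belonged to a gene with another listed transcript, and in 13 of these the FPKM summed over the gene differed by under 1 on the log2 scale. A lost transcript can be a small part of its gene, so a steady sum does not show that another transcript took its place. The sum over the gene of XM_006562386.1 was 100 FPKM in the virgin queens and 133 FPKM in the egg-laying queens. Among the 41 gained, 16 belonged to such a gene and in 3 the sum differed by under 1, XM_006570929.1 among them with gene sums of 51.7 and 76.9 FPKM. With FPKM summed where a gene was paired, 7 genes were gained and 3 were lost. The other 18 gained and 26 lost entries were single transcripts with no paired gene.

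**Figure D4:**
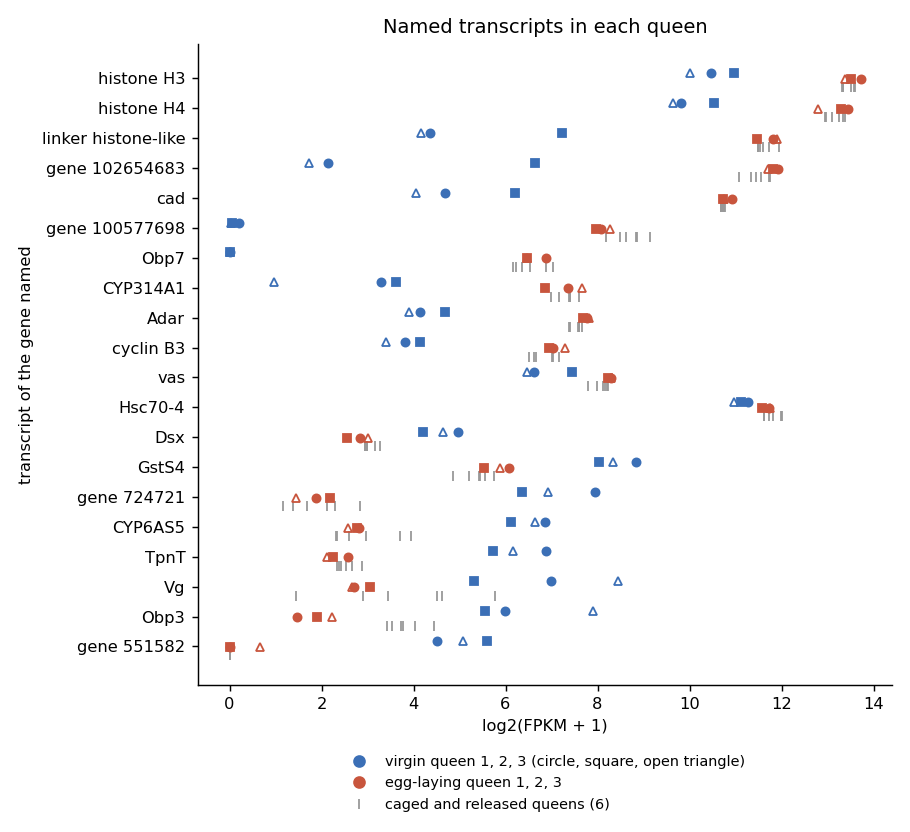
FPKM of 20 transcripts on a log2(FPKM + 1) scale in each virgin queen (blue), egg-laying queen (red) and caged or released queen (grey ticks). Marker shapes stand for queens 1, 2 and 3. Virgin queen 2 (square) is the virgin queen nearest to the egg-laying range for histones, cad and Vg, and the 6 other mated queens lie near the egg-laying queens for most transcripts.

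The gene lists were put together by known function, each gene read from its most abundant transcript. Several members bear names taken from the study's lists of genes that differed in these samples, among them genes of the cell division, chromatin and RNA processing lists. The counts of lists that hold such members are not independent evidence. Over all transcripts, 27.9% were higher and 28.0% lower. These shares include rare transcripts, which were seldom called higher, while many list genes were more abundant. Of 6508 transcripts with a mean of 10 to 100 FPKM, 3134 were higher and 1555 lower. Of 611 from 100 to 1000 FPKM, 359 were higher and 100 lower. The lists were not tested against transcripts of like abundance, so a share above 27.9% does not by itself set a list apart. Of 12 genes of body axis patterning, 4 rose and 3 fell, with a median log2 difference of -0.11 against -0.06 over all transcripts, and after rescaling to the same sum 3 were higher and 5 lower. The transcript of cad, a homeobox factor of posterior patterning, stood at 24.9, 72.7 and 15.6 FPKM in virgin queens and at 1943, 1705 and 1731 FPKM in egg-laying queens (log2 difference 5.82 ± 0.39, limma adjusted p = 2.5e-07, and 6.43 without virgin queen 2). The pair-rule gene eve went from 2.68 to 11 FPKM to 145 to 182 FPKM (log2 difference 4.79), and cact1, of the family of NF-kappa-B inhibitors of the Toll pathway, rose by 1.38. The NF-kappa-B factor Dl fell from 69.3 to 76.0 FPKM to 29.9 to 32.0 FPKM. The Hox gene Ubx was called lower (limma adjusted p = 0.032), but its ranges overlapped and 6 alternative settings did not call it.

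Of 8 genes of the germline and sex determination, vas, the oocyte maturation kinase gene c-mos and the splicing regulator tra2 rose, by 1.42, 1.28 and 1.56, and Dsx, Fem and Tert fell, by 1.80, 1.43 and 0.66. The transcript of Dsx, the last switch of the sex determination cascade, stood at 17.4 to 30.1 FPKM in virgin queens and at 4.86 to 7.02 FPKM in egg-laying queens. These 6 of 8 did not overlap between groups, against 60.7% of all transcripts.

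Of 13 genes of cell division and DNA repair, 11 rose and 1 fell, against 27.9% higher and 28.0% lower of all transcripts. These genes had means of 10 to 100 FPKM, where 3134 of 6508 transcripts were higher and 1555 lower. The list median was 1.17, and some members came from the study's lists of genes that differed in these samples. Cyclin B3, a mitotic cyclin, rose from 9.49 to 16.6 FPKM to 122 to 156 FPKM (log2 difference 3.31 ± 0.20, limma adjusted p = 1.2e-07). Kinesin 3B, a microtubule motor, rose by 1.76, the cohesin loader Nipped-B by 1.60, the Ran exchange factor RCC1 by 1.52 and katanin p80, a subunit of a microtubule severing enzyme, by 1.42. DNA topoisomerase 1, the most abundant, rose from 41.1 to 59.4 FPKM to 107 to 108 FPKM, and the crossover junction endonuclease MUS81 fell by 0.68. After rescaling to the same sum, 10 were higher and 2 lower.

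Of 11 chromatin genes, 7 rose and 1 fell, against 27.9% higher and 28.0% lower of all transcripts. Most of these genes had means of 10 to 100 FPKM, where 3134 of 6508 transcripts were higher and 1555 lower. The maintenance DNA methyltransferase Dnmt1a rose from 11.6 to 15.1 FPKM to 27.2 to 30.9 FPKM, and UHRF1, which guides that enzyme to hemimethylated DNA in mammals, rose from 8.98 to 11.9 FPKM to 35 to 40.7 FPKM. Dnmt3, the de novo enzyme, was at most 1.45 FPKM in the 6 libraries. Pcl had the largest rise, 1.92, the acetyltransferase KAT2A fell by 0.55, and Su(var)3-9, a heterochromatin gene, stood at 77.1 to 88.0 FPKM and 80.5 to 91.0 FPKM. Of 12 genes of splicing, export and RNA processing, 9 rose and none fell. The RNA editing enzyme Adar stood at 16.7, 24.9 and 14 FPKM and at 216, 204 and 225 FPKM (log2 difference 3.50 ± 0.16, limma adjusted p = 1.8e-08). The export helicase WM6, the most abundant of them, was called higher by 0.38 with overlapping ranges, and its sign turned after rescaling to the same sum. On that scale 5 chromatin genes were higher and 3 lower, and 7 and 2 of the RNA processing genes.

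The messages of the general protein and energy machinery did not share a direction, and of all transcripts 27.9% were higher and 28.0% lower. Many of these genes had means of 100 to 1000 FPKM, where 359 of 611 transcripts were higher and 100 lower. Of 7 cytosolic ribosomal proteins 2 fell and none rose, although 6 were lower after rescaling to the same sum. The list held 1.59% to 1.87% of the summed FPKM in virgin and 1.09% to 1.31% in egg-laying queens. A share falls where the sum rises, and the summed FPKM was higher in egg-laying queens. As deposited, 5 of these 7 genes were not called. Of 5 translation factors 3 rose and 2 fell. The initiation scaffold Eif4g rose by 1.07 and Ef-1a-f1 fell from 17.1 to 28.8 FPKM to 1.85 to 2.79 FPKM, while EF1a-F2, the abundant elongation factor, was higher by 0.36 as deposited and not called after rescaling. Of 13 genes of mitochondrial respiration 5 rose and 1 fell, against 4 and 6 after rescaling. The cytochrome oxidase subunit Cox6c rose from 464 to 600 FPKM to 1366 to 2320 FPKM, and Uqcr11 fell by 0.57. Of 7 chaperones 4 rose and 1 fell, against 1 and 3 after rescaling, and the largest rises were those of the kinase cochaperone Cdc37 and of Hsp90, both by 0.73. After rescaling these were 0.25 and 0.23, and Hsp90 was not called. On the rescaled values the medians of the germline, translation, mitochondrial, chaperone and hormone lists were below 0 (-0.35, -0.13, -0.38, -0.14 and -0.19), while as deposited they were above it (0.10, 0.36, 0.11, 0.36 and 0.26).

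Of 12 redox enzymes 3 rose and 5 fell, against 27.9% higher and 28.0% lower of all transcripts, and none rose after rescaling. The glutathione transferase GstS4 fell from 455, 260 and 321 FPKM to 66.7, 45.5 and 57.8 FPKM (log2 difference -2.57 ± 0.23, limma adjusted p = 2.5e-06), and the peroxidase genes Tpx-4 and Gtpx1 fell by 1.99 and 1.46. The superoxide dismutase Sod1 rose by 0.63 but was not called after rescaling. Of 7 cytochrome P450 genes 5 fell, with CYP6AS5 falling from 68.9 to 115 FPKM to 4.99 to 6.0 FPKM. The exception was CYP314A1, which in Drosophila turns ecdysone into its active form. It stood at 8.77, 11.3 and 0.962 FPKM in virgin queens and at 163, 115 and 203 FPKM in egg-laying queens (log2 difference 4.67 ± 0.53, limma adjusted p = 1.6e-05). Cyp4g11, the most abundant, had 103, 12.1 and 132 FPKM in virgin queens and 128 to 164 FPKM in egg-laying queens and was not called.

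Of 16 hormone genes 6 rose and 1 fell, against 4 and 4 after rescaling and 5 and 4 without virgin queen 2. As deposited, 27.9% of all transcripts were higher and 28.0% lower. The ecdysone receptor EcR rose from 2.58 to 5.88 FPKM to 28.2 to 38.4 FPKM (log2 difference 2.57), and the ecdysone response genes E74 and E75 rose by 1.27 and 0.94, although E75 was not called after rescaling (0.50) or without virgin queen 2. USP, the receptor partner of EcR, at 7.48 to 11.7 FPKM and 9.86 to 13.4 FPKM, was not called. The gene of the JH-inducible protein rose by 1.22. The gene ecd, needed for ecdysone production in Drosophila, fell by 0.71.

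**Figure D5:**
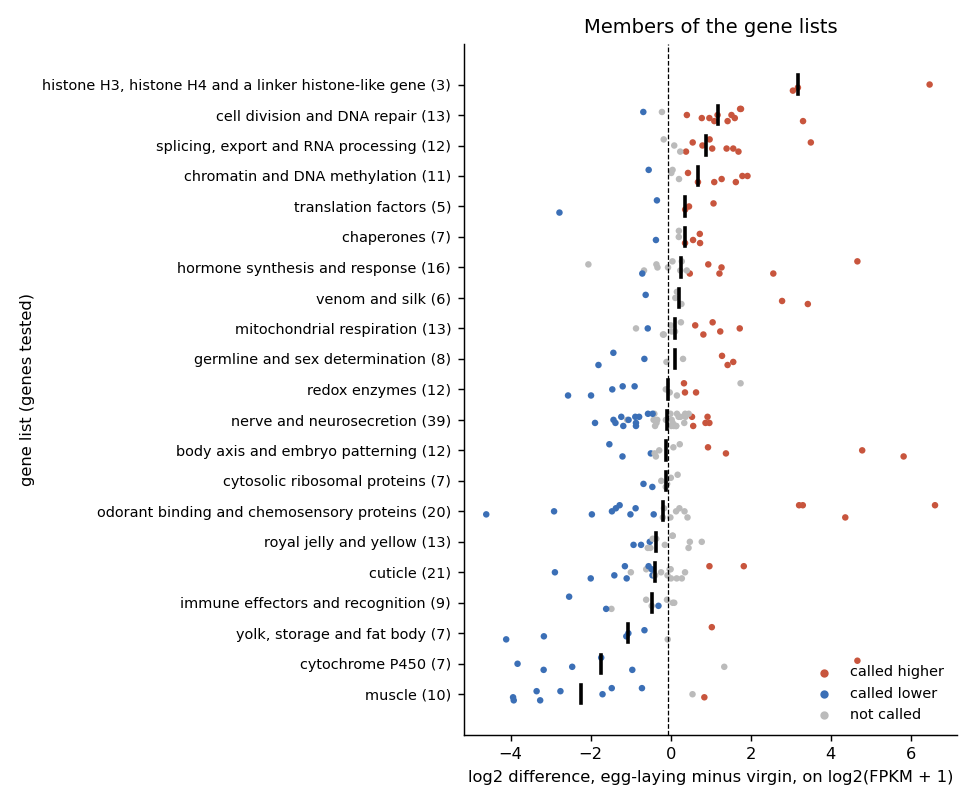
Log2 difference between egg-laying and virgin queens for each gene of 21 lists, with the number of genes tested in parentheses. Points are genes, colored where limma called them, the black bars are list medians and the dashed line is the median of all 18036 transcripts (-0.06). Medians run from 3.18 for the list of histone H3, histone H4 and a linker histone-like gene to -2.23 for muscle. The 3 members of the first list are named in the study's lists of genes that differed in these samples.

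Genes of muscle and of the fat body were mostly lower in egg-laying queens, while those of other tissues were mixed. Among all transcripts, 27.9% were higher and 28.0% lower. Of 10 muscle genes 8 fell and 1 rose, with a median of -2.23, and the list held 0.186% to 0.362% of the summed FPKM in virgin and 0.0731% to 0.0914% in egg-laying queens (exact permutation p = 0.1). Troponin T (TpnT), of the thin filament, stood at 116, 52.2 and 70.7 FPKM and at 4.97, 3.78 and 3.33 FPKM (log2 difference -3.94 ± 0.25, limma adjusted p = 1.9e-07), and myophilin fell by 0.72. The exception was troponin C type IIa, which rose by 0.84 but was not called after rescaling. Arginine kinase (Argk), also found outside muscle, stood at 84.0 to 156 FPKM and 126 to 175 FPKM. In these 6 libraries only TpnCIIb of this list was listed at 0, in 2 egg-laying queens.

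Of 7 yolk, storage and fat body genes 5 fell and 1 rose, against 28.0% lower and 27.9% higher of all transcripts. Vg, vitellogenin, stood at 125, 39.1 and 347 FPKM in virgin and at 5.56, 7.28 and 5.29 FPKM in egg-laying queens (log2 difference -4.11 ± 0.69, limma adjusted p = 0.00035), and the storage protein gene Hex70b rose by 1.03. The list held 0.0354% to 0.140% of the summed FPKM against 0.0162% to 0.0179%, and virgin queen 2 had the lowest virgin level of Vg. Of 9 immune genes 3 fell and none rose, and the falls were near the 28.0% of all transcripts. PGRP-S3, a peptidoglycan recognition gene, fell by 2.54, and Def1 varied from 4.46 to 77.2 FPKM among virgin queens and was not called.

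Of 21 cuticle genes 8 fell and 2 rose, with Cpap3-d falling by 2.89 and CPR13 rising by 1.83, and of 39 nerve genes 12 fell and 5 rose, against 28.0% lower and 27.9% higher of all transcripts. Those of royal jelly and yellow proteins stood low, at most 7.36 FPKM in any of the 6 libraries, and 3 of 13 fell. The summed shares of the muscle, fat body and cuticle lists did not overlap between the groups, and that of the nerve list did, at 0.0825% to 0.103% in virgin and 0.0580% to 0.0826% in egg-laying queens. Such shares also fall where the summed FPKM rises, as it did in egg-laying queens. As deposited, the median log2 difference was -0.39 for cuticle, with 11 of 21 genes not called, and -2.23 for muscle. The part of these tissues in the other differences was not tested.

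Of 20 odorant binding and chemosensory proteins 4 rose and 9 fell, against 27.9% higher and 28.0% lower of all transcripts. Obp3 fell from 62.5, 46.0 and 237 FPKM to 1.76, 2.76 and 3.71 FPKM (log2 difference -4.61 ± 0.49, limma adjusted p = 9.3e-06), and CSP3, the most abundant, fell from 918, 274 and 438 FPKM to 74.2, 71.1 and 46.7 FPKM. Beside Obp7, Obp9 rose from 1.30 to 12.1 FPKM to 86.0 to 103 FPKM, Obp13 from 0 to 0.921 FPKM to 6.70 to 20.8 FPKM, and CSP6 from 20.1 to 27.3 FPKM to 214 to 245 FPKM. Of 6 venom and silk genes Apamin and Mcdp rose, and Fibroin2 fell by 0.63 but was called in only 15 of 22 alternative settings.

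Of 30 genes matched to the study's table of reproduction genes, 14 were higher, 13 lower and 3 not called, against 55.9% called of all transcripts. The table's hexokinase gene was not matched and is not analysed here. That table was drawn up from these samples, so this count is not independent evidence. Outside the lists given so far, it held a proton-coupled amino acid transporter gene, which rose from 19.5 to 36.1 FPKM to 243 to 292 FPKM, RWDD1, which rose from 19.5 to 27.9 FPKM to 186 to 230 FPKM, and Mapk-3, which fell from 25.0 to 31.7 FPKM to 8.30 to 8.61 FPKM.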

How the data were processed

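The authors depleted rRNA, made strand-specific libraries from the ovary of each of 12 queens, aligned reads to Amel_4.5 with TopHat2 2.0.9 and estimated FPKM per transcript with Cufflinks; the deposited FPKM values were used here, and the depth behind them is unknown. The miRNA table was not used here. Transcripts were paired with genes by RefSeq accession (assembly Amel_HAv3.1, names and order only) or the study's supplementary tables, for 12556 of 21596. log2(FPKM + 1) was fitted with limma 3.58.1 (lmFit, eBayes with trend) in R 4.3.3, 1 mean per group over all 12 mRNA libraries. P-values were two-sided and adjusted by Benjamini-Hochberg over 18036 transcripts, and called under 0.05. Fold changes on this scale understate changes of low transcripts. A replicate is 1 queen. The script was tested on simulated data. Named were the first 10 of each group, the 6 largest rises and falls with non-overlapping groups and a mean of at least 1 FPKM, the first 6 gained and lost, the 3 smallest differences at 100 FPKM or more, and of each list its most abundant gene and largest rise and fall; further genes of a list were named after their values were seen. Members, lists and tests were chosen with earlier results of these data known. The lists first planned, by words in gene names, could not be applied, as the gene table holds symbols only. Lists of symbols and gene IDs written after the table was seen replaced them. Alternatives changed the pseudocount, filter, scaling, libraries and model.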

Additional observations from a re-analysis of the deposited data

How the results depend on the processing

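The count of 10074 calls ranged from 8848 to 10153 when 1 of the 12 libraries was left out, with 4568 to 5052 higher and 4280 to 5101 lower. With a replicate block it was 10047. Deviations of same-numbered virgin and egg-laying queens correlated at -0.05, 0.09 and 0.06, and those of other pairs at -0.17 to 0.14. With so few queens, these values do not settle whether replicate numbers pair them. Of the counts over all transcripts, rescaling to the same sum moved those by direction by over 1.5 times, to 3076 higher and 8108 lower. Quantile normalization moved the higher calls from 0.1 to 1 FPKM from 185 to 448. Gained and lost transcripts numbered 16 and 6 with at least 5 FPKM in place of 1, 22 and 21 where the other group was listed at 0, 132 and 254 with a limit of 0.5 FPKM in place of 0.1, 25 and 29 with paired transcripts summed per gene, and 49 to 67 and 60 to 82 with 1 library left out, a looser limit by construction. Transcripts making up 50% of the summed FPKM averaged 851 in virgin and 715 in egg-laying queens without the 5 most abundant of either group, 485 per gene in egg-laying queens, and 708.5 to 786 and 514 to 560.5 with 1 library left out. For named transcripts called on either of the 2 scales, signs turned after rescaling to the same sum for Su(var)3-9 (-0.48), WM6 (-0.11), EF1a-F2 (-0.13), gene 726175 (-0.46), gene 411183 (-0.49), CytC (-0.49) and gene 410004 (-0.49). Called on neither, ribosomal protein L41 (-0.32), gene 725432 (-0.22), Syx1A (-0.44), Cpap3-b (-0.34) and Y-y (-0.34) turned too. Under quantile normalization they turned for Su(var)3-9 (-0.59), WM6 (-0.31), ribosomal protein L41 (-1.52), Hsc70-4 (-1.27), Syx1A (-0.55), gene 725230 (-0.055), gene 726175 (-1.38), gene 725432 (-0.86), gene 411183 (-0.61), CytC (-0.68) and gene 410004 (-0.63), and, called on neither scale, for Argk (-0.08), Cpap3-b (-0.29) and XM_006562069.1 (-0.32). The cause was not tested beyond the scaling itself. An exact test of 3 against 3 queens cannot give a p under 0.1.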

Other observations

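Some abundant transcripts varied widely among the caged and released queens. XM_001123087.3, at 868 to 1291 FPKM in egg-laying queens, ranged from 0 to 1182 FPKM in the 6 caged and released queens, XM_006571877.1 from 5.05 to 700 FPKM and XM_006562069.1 from 0 to 6096 FPKM. Virgin queen 2 was the virgin queen nearest to the egg-laying queens in 1477 of 2422 rises of at least 1 on the log2 scale (61.0%) and in 1341 of 1866 falls of that size (71.9%), but not in the large rises of genes 100577698, 100576982, 100578107 and 413379, where it lay within or below the other virgin queens. The labels hold nothing that sets this queen apart.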
